A study of Mus musculus with 18 samples.

Results

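The 358 genes described here fell at least 2-fold within the first day of differentiation of mouse embryonic stem cells (mESCs) and had risen at least 2-fold again by day 3. They were chosen from the mean transcript abundance per day (TPM, which is scaled for transcript length and library total). A gene entered with a day 0 mean of 5 TPM or more, a day 1 mean at least 2-fold lower, a day 3 mean at least 2 times that of day 1, and every day 1 library under every library of days 0 and 3. *Nanog* met these conditions too and was left out. Of 24369 genes in the table, 9893 others had a day 0 mean of 5 TPM or more, and the 358 members are 3.62% of these. Days 0, 1 and 3 chose the members, so their levels on these days are given as a description with no test.

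RNA was measured in 18 libraries of mESCs derived from E14, of the genotype Rex1GFPd2-Cas9, which express Cas9 and a destabilized GFP from the *Rex1* locus (listed as *Zfp42*). The time course held cells before differentiation (day 0) and on days 1, 2 and 3, with 3 libraries per day. A separate set held GFP+ cells sorted from wild-type, *Nprl2* KO and *Tsc2* KO lines, all of the Rex1GFPd2-Cas9 genotype, with 2 libraries per genotype. The KO lines were made by deleting an exon with a pair of guide RNAs, and lines for sorting were kept on feeder fibroblasts in serum with LIF. The culture before day 0 of the time course and the origin of replicate libraries (cultures, clones or days) are not given in the sources used here, so the spread between libraries may be technical. Estimated counts totalled 12503005 to 15305054 in the time course and 8610357 to 13780861 in GFP+ cells. General pluripotency genes summed to between 2465 and 4134 TPM in the time course, while *Zfp42* fell from 775 TPM on day 0 to 12.8 TPM on day 3.

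mESCs leave the naive state when inhibitors and LIF are withdrawn, and pass through a formative state before lineage choice. Many naive genes are then shut off and stay off. Several of the pathways met below read the state of the cell rather than its lineage: the amino acid response, in which the kinase Gcn2 and the factor *Atf4* raise amino acid synthesis and transport, the HIF response to low oxygen, and the lysosome. mTORC1, a kinase complex that couples growth to amino acids and growth factors, is held back by the Gator1 subunit *Nprl2* and by the Tsc complex subunit *Tsc2*. As these are bulk libraries, fewer expressing cells and less RNA per cell cannot be told apart.

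The promoters of the amino acid response members are shown first because these genes recur in the time course and in the KO comparisons below. All 9 had RefSeq promoter entries (GRCm38.p6, 250 bases before to 50 after a start, 12 promoters), and 4 genes held TGATGCA, a core shared by ATF4 and C/EBP sites, on either strand. That core was chosen after the members were known and stands in 3.15% of all 32851 promoters of this length. It overlaps in part with the octamer core ATGCAAA. Other motifs were searched too. Among them a second ATF4 and C/EBP core, found in 3.52% of all promoters, matched no promoter of the 9 genes. The match to TGATGCA is in capitals. The sequences are written along the strand of the gene. *Nupr1* (minus strand, chr7:126625421-126625720) encodes a stress-induced chromatin protein, *Chac1* (plus strand, chr2:119350992-119351291) degrades glutathione, *Pycr1* (minus strand, chr11:120643699-120643998) makes proline, and *Slc6a9* (plus strand, chr4:117849100-117849399, 1 of its 3 promoters) takes up glycine.
Nupr1: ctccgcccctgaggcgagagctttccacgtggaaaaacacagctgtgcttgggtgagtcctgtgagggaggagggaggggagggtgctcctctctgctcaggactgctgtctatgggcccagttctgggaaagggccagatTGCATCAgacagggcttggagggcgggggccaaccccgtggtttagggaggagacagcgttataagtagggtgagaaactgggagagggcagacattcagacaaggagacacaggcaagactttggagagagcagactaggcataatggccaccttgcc
Chac1: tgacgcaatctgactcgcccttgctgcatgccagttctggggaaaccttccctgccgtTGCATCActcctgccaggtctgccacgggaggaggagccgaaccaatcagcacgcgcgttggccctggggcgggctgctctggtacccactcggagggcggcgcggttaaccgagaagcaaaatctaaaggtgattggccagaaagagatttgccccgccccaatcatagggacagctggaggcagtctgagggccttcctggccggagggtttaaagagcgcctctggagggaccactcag
Pycr1: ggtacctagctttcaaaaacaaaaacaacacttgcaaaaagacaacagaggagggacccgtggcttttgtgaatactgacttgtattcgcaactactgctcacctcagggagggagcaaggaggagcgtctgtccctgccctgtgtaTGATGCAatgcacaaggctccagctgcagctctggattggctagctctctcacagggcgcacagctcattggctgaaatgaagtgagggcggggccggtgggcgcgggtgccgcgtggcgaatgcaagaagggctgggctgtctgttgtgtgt
Slc6a9: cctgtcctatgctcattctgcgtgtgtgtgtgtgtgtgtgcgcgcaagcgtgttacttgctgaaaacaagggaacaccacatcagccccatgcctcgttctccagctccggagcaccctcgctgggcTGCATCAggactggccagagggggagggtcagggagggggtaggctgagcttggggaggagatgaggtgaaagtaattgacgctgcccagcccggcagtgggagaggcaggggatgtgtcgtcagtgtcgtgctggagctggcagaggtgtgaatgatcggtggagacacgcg
Promoter entries were found for 282 of the 358 members, under 80% of them, so no share of motifs or GC content is given for the whole group.

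Across the group, the median level was 12.1 TPM on day 0, 3.53 on day 1, 8.87 on day 2 and 12.6 on day 3. The fall from day 0 to day 1 had a median of 3.19-fold and ran from 2.00-fold to 102-fold, with 123 members at 4-fold or more and 26 at 10-fold or more. The rise from day 1 to day 3 had a median of 3.10-fold and a maximum of 30.1-fold. Among all 9893 genes at 5 TPM or more, 981 (9.92%) fell at least 2-fold with libraries apart, and 358 of these (36.5%) met the conditions on recovery. A further 616 genes failed on the recovery alone and 10 on the condition on single libraries. On the TMM scale of a count fit over all genes, which uses estimated counts in place of TPM, the members with counts had a median log2 change of -1.61 from day 0 to day 1 and of 1.49 from day 1 to day 3, against 0.00 and 0.02 over all 14378 genes fitted.

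The limits of the rule cut through a continuous range. Just inside the level limit stood *Zfp800*, *Nrbp2* and *Fbxl2*, with day 0 means of 5.05, 5.06 and 5.06 TPM, and just outside stood *Vgll4*, *Cited4* and *Tagln3* at 4.99, 4.98 and 4.98 TPM. For the fall, *Apeh*, *Sergef* and *Tspo* entered at 2.00-fold, 2.01-fold and 2.01-fold, and *Gpr19*, *Crocc* and *Hspg2* missed at 1.99-fold. For the rise, *Ttyh1*, *Frmd4a* and *Acp5* entered at 2.00-fold, 2.01-fold and 2.03-fold, while *Arvcf*, *Cask* and *Sept9* missed at 1.99-fold, 1.98-fold and 1.97-fold. Leaving out any 1 library of days 0, 1 and 3 kept 276 of the 358 members under every such choice. The rule used values per gene. In 17 members at least 2 transcripts had day 0 means of 5 TPM or more. For 8 of these, each such transcript fell at least 2-fold and rose at least 2-fold again.

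Recovery began by day 2, a day that the rule did not use. All 3 day 2 libraries lay above all 3 day 1 libraries in 330 members (92.2%) and below them in 1, against 37.5% and 30.2% of all genes at 5 TPM or more. The day 2 mean over the day 1 mean had a median of 2.28 in members and 1.03 in all those genes. Since members were required to be low on day 1, a rise after it is partly fixed by the choice, and no test is given. Between days 2 and 3, 220 members rose with libraries apart (24.5% of all genes did) and 10 fell (18.5% of all genes). On day 2, 184 members were still under all day 0 libraries (36.4% of all genes), 131 overlapped them and 43 lay above (31.6%).

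On day 3 the members lay on both sides of their starting level. The median of the day 3 mean over the day 0 mean was 1.02, and 150 members (41.9%) had libraries that overlapped with day 0. All day 3 libraries lay above day 0 in 107 members (29.9%, against 34.8% of all genes) and below it in 101 (28.2%, against 36.9%). The day 3 mean was at least 2 times that of day 0 in 40 members, and in another 40 it was under 0.5 of it (11.2% each, against 6.97% and 10.6% of all genes). The rule set a least rise, so only the 123 members that fell 4-fold or more could end under 0.5. The shares of members under day 0 are thus limited by the choice. The plot of fall against recovery shows both ends.

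**Figure D1:**
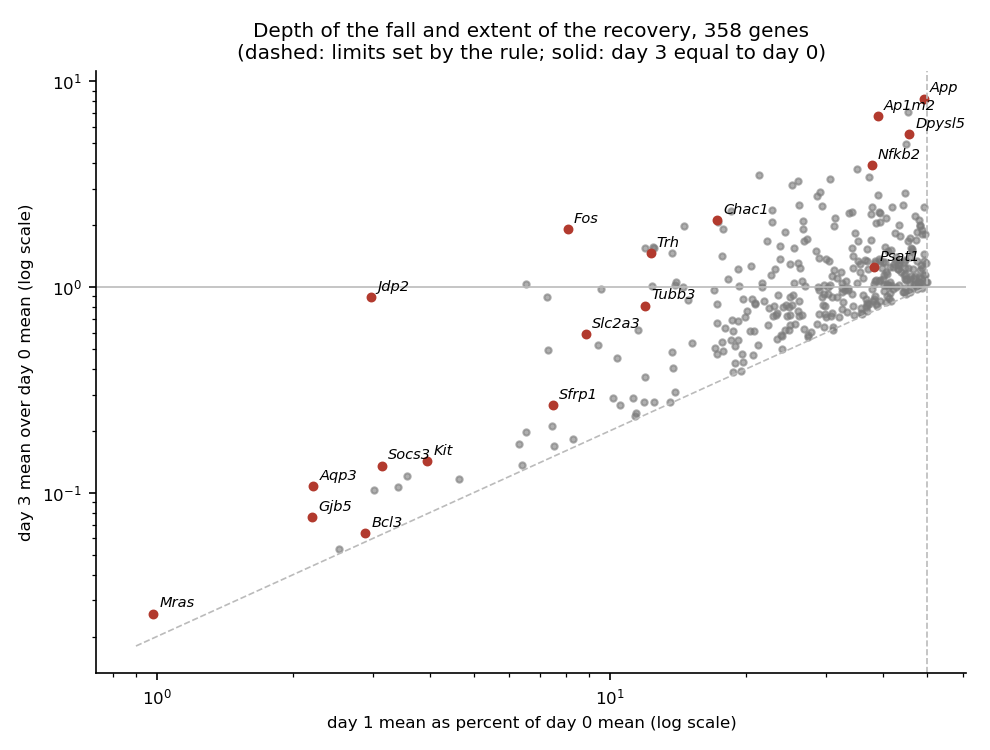
Each point is one of the 358 members, with the day 1 mean as a percentage of the day 0 mean on the horizontal log axis and the day 3 mean divided by the day 0 mean on the vertical log axis. Members with the deepest falls, such as *Mras* and *Gjb5*, lie far under the line at 1, and *App*, at 8.22, is the highest point. Dashed lines mark the limits of the rule, which let only members with deep falls lie far under 1.

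Replicate libraries kept an order over many of these genes. On day 0, replicate 3 held the lowest of the 3 values in 224 members (62.6%), against 39.1% of all genes at 5 TPM or more. On day 2, replicate 3 was the highest in 291 members (81.3%, against 43.3% of all genes), and on day 3 replicate 1 was the highest in 203 (56.7%, against 30.2%). The median coefficient of variation of members was 11.7% on day 0, where that of all genes was 6.75%, and 16.4% against 7.24% on day 2. What sets these libraries apart was not tested.

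The 9 amino acid response members came from a list of 26 genes, of which 21 reached 5 TPM on day 0 and 11 fell at least 2-fold, so 42.9% of the measurable list dipped and recovered where 3.62% of all such genes did. They were *Aldh18a1*, *Cebpb*, *Chac1*, *Ddit3*, *Nupr1*, *Psat1*, *Pycr1*, *Slc6a9* and *Trib3*, with falls between 2.26-fold and 28.0-fold. In 8 of the 9, the day 2 mean was above the day 3 mean, a course found in 36 of all 358 members.

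*Nupr1* had the deepest fall of the list. Its libraries stood at 97.7, 154 and 79.8 TPM on day 0, at 2.96, 4.95 and 3.93 on day 1, at 39.5, 39.6 and 39.5 on day 2, and at 14.5, 15.1 and 10.3 on day 3. It thus recovered in part by day 2 and declined again, with day 3 libraries under all of those of day 0. *Chac1*, which cleaves glutathione, overshot. Its values were 12.9, 17.5 and 13.0 TPM on day 0, then 2.91, 2.70 and 1.88, then 37.4, 30.7 and 30.8, and on day 3 they were 29.5, 31.0 and 31.1. Every library of days 2 and 3 was above every day 0 library.

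*Psat1*, an enzyme of serine synthesis and the second most abundant member, stood at 289, 341 and 245 TPM on day 0 and at 110, 110 and 114 on day 1. It reached 367, 379 and 402 on day 2 and 355, 397 and 343 on day 3, all above day 0. *Trib3*, a pseudokinase induced by *Atf4*, went from 37.6, 39.0 and 37.6 TPM to 9.34, 9.60 and 9.13, and came back to 38.1, 33.4 and 30.8 on day 2 and to 28.7, 25.8 and 27.7 on day 3. Its day 2 libraries overlapped with day 0 and its day 3 libraries were lower. *Slc6a9* rose from a day 1 mean of 2.30 TPM to 14.1 on day 2 and 13.1 on day 3, 2.51 times its day 0 mean. *Cebpb*, a transcription factor, ended at 2.43 times its day 0 mean with libraries apart, whereas *Aldh18a1* and *Pycr1*, both of proline synthesis, and *Ddit3*, the stress factor also called Chop, overlapped with day 0 on day 3.

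3 further members of amino acid metabolism were picked after their values were seen. *Pck2*, the mitochondrial enzyme that makes phosphoenolpyruvate, fell 8.03-fold, from 28.8, 35.4 and 28.4 TPM to 3.77, 4.01 and 3.75, and stood at 47.9, 49.5 and 48.1 on day 3. *Gpt2*, which makes alanine, fell 2.23-fold and *Sars*, which charges serine tRNA, 2.13-fold, and both overlapped with day 0 on day 3. The rest of the amino acid response list missed the rule in different ways. *Psph*, at 59.7, 28.8, 63.0 and 54.6 TPM on days 0 to 3, missed on a rise under 2-fold. *Atf3* (3.34, 1.05, 7.71 and 19.1 TPM) and *Vldlr* (1.26, 0.148, 4.92 and 4.67 TPM) fell and rose under the level limit of 5 TPM. *Atf4* itself was at 397, 226, 318 and 367 TPM on days 0 to 3, a fall under 2-fold, and *Asns*, asparagine synthetase, fell from 621 to 200 TPM and stayed at 245 TPM on day 3.

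**Figure D2:**
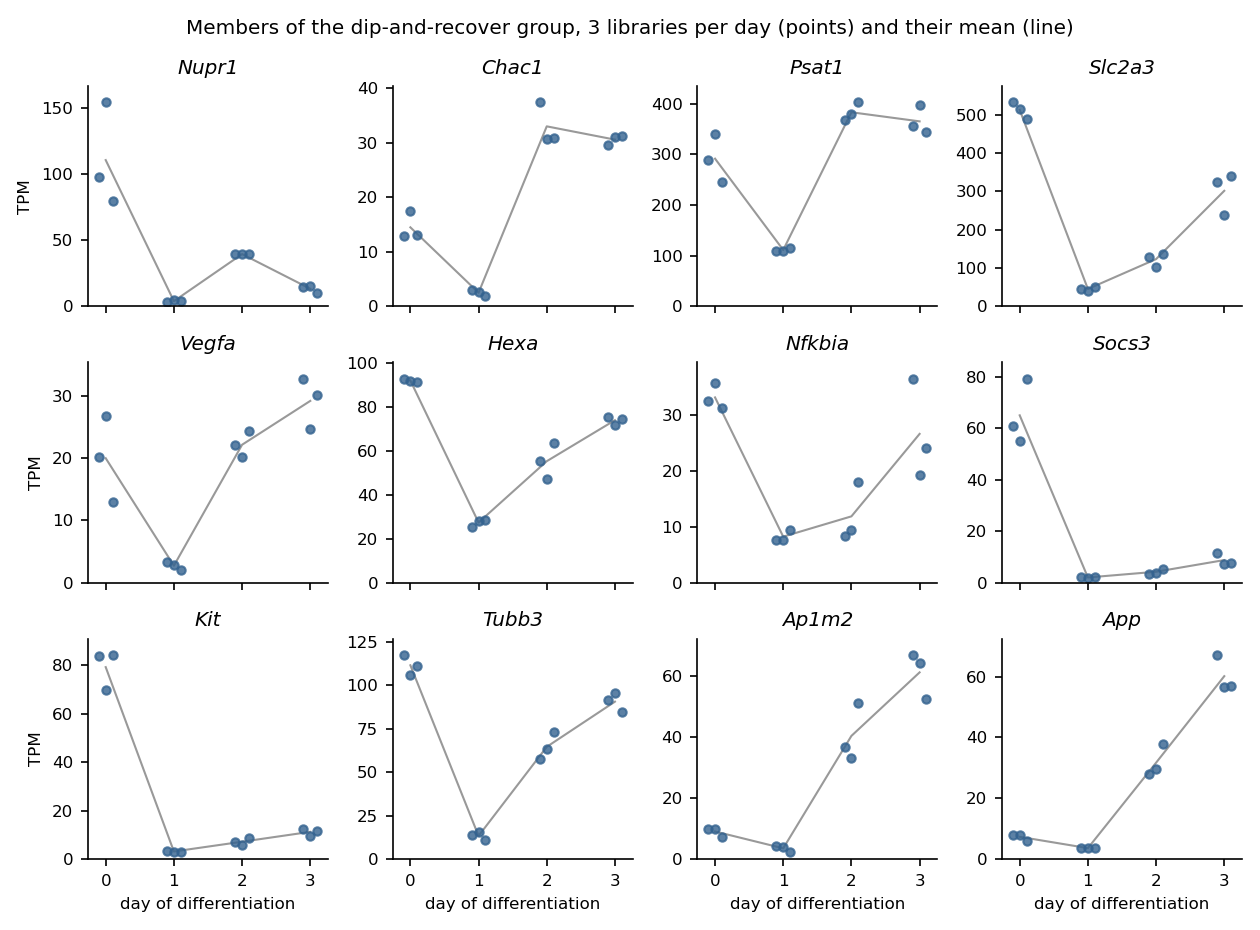
TPM on a linear axis from 0 against the day of differentiation for 12 members, with points for the 3 libraries of each day and a line through the means. *Nupr1* peaks again on day 2, *Socs3* and *Kit* recover little, and *Ap1m2* and *App* end far above day 0.

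Genes of glycolysis and the response to low oxygen gave 7 members of 28 at 5 TPM or more on the first list. That is 25%, against 3.62% of all genes at that level. They were *Aldoc*, *Egln1*, *Ndrg1*, *P4ha1*, *P4ha2*, *Slc2a3* and *Vegfa*. A wider list of HIF targets, written after the members were known, adds *Ak4*, *Bhlhe40*, *Ndufa4l2* and *Plin2*. *Slc2a3*, the glucose transporter Glut3 and the most abundant member, had 533, 516 and 490 TPM on day 0 and a mean of 45.4 on day 1. It reached 130, 104 and 137 on day 2 and 324, 240 and 341 on day 3, still under day 0 in all libraries. *Vegfa*, a growth factor of blood vessels, fell from 20.2, 26.8 and 13.0 TPM to 3.34, 2.80 and 2.06 and was back at a mean of 22.1 on day 2.

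The day 0 libraries of this group spread widely. *Ndufa4l2*, a subunit-like protein of respiratory complex IV, was at 10.8, 26.4 and 3.92 TPM before differentiation, and *Bhlhe40*, a transcriptional repressor, at 15.5, 18.9 and 6.56. Among the 11 HIF targets, replicate 2 was the highest day 0 library in 9 and replicate 3 the lowest in 9, and the median coefficient of variation was 31.6%. On day 3 the libraries overlapped with day 0 in 7, lay above in 2 and below in 2.

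Lysosomal genes gave 4 members of 26 on the first list (15.4%, against 3.62% of all measurable genes). They were the proteases and hydrolases *Ctsl*, *Hexa* and *Neu1* and the membrane protein *Lamp2*. A wider list of 51 measurable hydrolases and transporters, written afterwards, held 14 members (27.5%), among them *Ctsc*, *Gm2a*, *Fuca2*, *Ifi30* and the amino acid exporter *Slc36a1*. Their falls were shallow, with a median of 2.39-fold. *Hexa*, a subunit of hexosaminidase, had 92.8, 91.8 and 91.3 TPM on day 0 and 25.4, 28.2 and 28.5 on day 1, and stood at 75.5, 71.9 and 74.3 on day 3. *Ctsl* returned from 60.0, 56.1 and 60.3 TPM to 144, 134 and 130, overlapping with day 0. Of the 14, 6 overlapped with day 0 on day 3, 5 were lower and 3 higher.

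Members with the deepest falls recovered little. Of the 15 with the lowest share of day 0 on day 1, all fell at least 15.3-fold, and 14 had day 3 means under 0.2 of day 0 with all libraries lower. The rule asks for a day 3 mean of at least 2 times day 1, so only deep falls could end far under day 0. This link between depth and recovery is thus partly fixed by the choice. *Mras*, a Ras-related GTPase, went from 28.2, 26.7 and 36.7 TPM to 0.224, 0.424 and 0.251, and reached 0.518, 0.585 and 1.26 on day 3. *Gjb5*, a connexin, and *Aqp3*, a water channel, fell 45.5-fold and 45.1-fold and ended at 1.95 and 2.62 TPM. Day 1 values of these 15 rest on 0 to 135 estimated counts per library, with a median of 11, so their rise often rests on few counts.

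Among them were *Socs3* and *Bcl3* of LIF and Stat3 signalling, which holds mESCs in self-renewal. A list of this pathway, written after the members were seen, held 4 members of 16 measurable genes (25%, against 3.62% of all measurable genes). Its other members, *Junb* and *Stat5b*, lay above day 0 on day 3. *Socs3*, the feedback inhibitor of this pathway and the 1 member on the naive list (15 of 17 measurable naive genes fell at least 2-fold), had 60.8, 54.8 and 79.2 TPM on day 0, 2.18, 1.78 and 2.17 on day 1, and 11.5, 7.24 and 7.65 on day 3. *Bcl3*, a nuclear cofactor of NF-kB, fell from 43.9, 41.4 and 52.1 TPM to 1.42, 1.45 and 1.09 and ended at 3.79, 2.50 and 2.44. *Kit*, the receptor of stem cell factor, fell 25.3-fold from 79.1 TPM and stood at 11.2 TPM on day 3. *Jdp2*, a bZIP repressor, was the exception, with 13.0, 13.5 and 11.7 TPM on day 0 and 0.449, 0.183 and 0.504 on day 1. On day 3 it had 13.5, 9.84 and 10.9, which overlaps with the start. Its transcripts differed: 1 went from a mean of 6.72 TPM on day 0 to 6.26 on day 3, another from 5.15 to 0.

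5 of 9 measurable NF-kB genes were members (55.6%, against 3.62% of all measurable genes), a set noticed after the values were seen. They were *Bcl3*, *Nfkb2*, *Nfkbia*, *Relb* and the receptor *Tnfrsf1a*. *Nfkbia*, the inhibitor that NF-kB itself induces, had 32.6, 35.8 and 31.2 TPM on day 0, 7.63, 7.70 and 9.44 on day 1, a mean of 11.9 on day 2 and 36.6, 19.3 and 24.2 on day 3. *Nfkb2* overshot, with a day 3 mean 3.92 times that of day 0. Of 11 measurable immediate early genes only 3 fell at least 2-fold, and *Fos* and *Junb* were the members among them. The day 3 libraries of *Fos*, at 51.0, 20.4 and 6.96 TPM, spread more than its whole day 0 range of 9.99 to 16.7 TPM.

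The members that rose furthest beyond their start were *App*, *Prph*, *Ap1m2*, *Dpysl5*, *Mapk13*, *Nfkb2*, *Rhoq*, *Mef2b*, *Cpe* and *Nfatc4*. Their day 0 means were all under 10 TPM, and *App*, *Prph* and *Dpysl5* serve neurons. *App*, the amyloid precursor protein, was at 7.91, 7.93 and 6.10 TPM on day 0 and at 3.76, 3.55 and 3.50 on day 1, and climbed to 27.8, 29.5 and 37.7 on day 2 and to 67.1, 56.4 and 56.9 on day 3. *Ap1m2*, a clathrin adaptor of epithelial cells, moved from 9.90, 9.94 and 7.35 TPM through 4.31, 4.07 and 2.24 to 67.0, 64.4 and 52.5. For these genes day 1 was a small dip before a large rise, since the fall was 2.03-fold for *App* and 2.56-fold for *Ap1m2*.

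12 of 22 measurable genes of the neuronal cytoskeleton and axon growth were members (54.5%, against 3.62% of all measurable genes). This list was written after the values were seen. *Tubb3*, a neuronal tubulin, had 117, 106 and 111 TPM on day 0, 13.7, 15.4 and 11.0 on day 1, and 91.7, 95.7 and 84.5 on day 3, somewhat under its start. On day 3, 6 of the 12 lay above day 0, 4 below and 2 overlapped. The neural list itself (14 genes, 2 at 5 TPM or more on day 0) gave *Tubb3* alone.

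13 of 44 measurable histone variants and chromatin regulators, again a list written afterwards, were members (29.5%, against 3.62% of all measurable genes). *H2afy*, a macroH2A histone, went from 89.4, 94.9 and 87.8 TPM to 16.8, 15.6 and 21.1 and back to 86.2, 68.9 and 81.6. Its relative *H2afy2* and the linker histone *H1f0* overshot, to 2.30 and 2.16 times day 0. *Smarcd3*, a BAF complex subunit, fell 33.2-fold and ended at 3.13 of 30.4 TPM.

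Single members stood on other lists. Of the cell cycle and FoxO lists, *Cdkn1b*, the inhibitor p27, and *Ccng2*, a cyclin of arrested cells, ended at 1.28 and 2.05 times day 0 with libraries apart, and *Klf15*, a metabolic transcription factor, at 0.431. Of the BMP, Nodal and TGF-beta lists, *Id3* fell from 76.3, 84.5 and 93.0 TPM to 15.6, 15.1 and 16.6, and was at 36.3, 28.4 and 33.1 on day 3, while the Nodal inhibitor *Lefty2*, *Pmepa1* and *Bmp7* overlapped with day 0. *B2m*, the light chain of MHC class I, overshot to 2.36 times day 0. *Trh*, the precursor of thyrotropin-releasing hormone, had 135, 123 and 233 TPM on day 0, 21.2, 20.3 and 18.7 on day 1, and 106, 219 and 388 on day 3. No member came from the lists of general pluripotency, SRF and YAP targets, Wnt targets, extracellular matrix, cholesterol synthesis, heat shock, p53 targets or germline genes.

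In GFP+ cells the genotypes were compared by the quasi-likelihood test of edgeR over 13722 genes, with Benjamini-Hochberg adjusted p under 0.05 as a call, and 353 of the 358 members were tested. *Hist1h4j*, *Ndufa4l2* and *Pgc* fell under the low-count filter, and *Gm38401* and *Large* had no transcripts with counts. The rule used time-course libraries alone, and none of the GFP+ libraries tested here. Members share a fall after day 0 with most naive genes, and the part of this in the KO results was not tested. The targeted genes were lower in their own KO. *Nprl2* stood at 8.09 and 8.65 TPM in *Nprl2* KO against 16.1 and 17.0 in wild-type (log2 fold change -0.96, adjusted p = 0.00887), and *Tsc2* stood at 18.8 and 20.3 TPM in *Tsc2* KO against 45.0 and 44.9 (-1.23, adjusted p = 9.57e-07). Both comparisons with wild-type share the same 2 wild-type libraries.

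A large share of the group was higher in *Tsc2* KO. Of 353 members, 135 were higher (38.2%, against 14.9% of all genes) and 31 lower (8.78%, against 14.2%), which makes 47.0% called against 29.1%. The median log2 fold change was 0.38 in members and 0.00 in all genes. All genes here are the 13722 tested, which include genes under the 5 TPM limit of the rule. Genes that fell without recovering were not compared as a set. Of 18 tested genes on the naive list, which holds 1 member, 10 were higher in *Tsc2* KO and 1 lower. Whether the shift is particular to the members was not tested. Fewer members were called in *Nprl2* KO, 16 higher (4.53%, against 2.78%) and 22 lower (6.23%, against 3.65%), with 10.8% called against 6.43% and medians of -0.07 and 0.00. When replicate numbers entered the fit as a block, 79 members were called in *Nprl2* KO in place of 38, of which 28 were higher. Over all genes, 2069 were called there in place of 882. Without *Tsc2* KO library 2 the members called in *Tsc2* KO came to 110, and without *Nprl2* KO library 2 those in *Nprl2* KO came to 23.

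Set against each other, *Tsc2* KO was higher than *Nprl2* KO in 145 members (41.1%, against 17.5% of all genes) and lower in 44 (12.5%, against 16.6%). Feeder fibroblast markers, 16 genes, summed to 173 to 219 TPM in wild-type, 168 to 179 in *Nprl2* KO and 57.7 to 205 in *Tsc2* KO, where library 2 was the low one. The part of feeder RNA in these results was not tested, beyond the fit without that library. In *Tsc2* KO, genes of chromosome 1 had a median log2 fold change of 0.37, and 10 of the 13 members tested there were called higher.

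**Figure D3:**
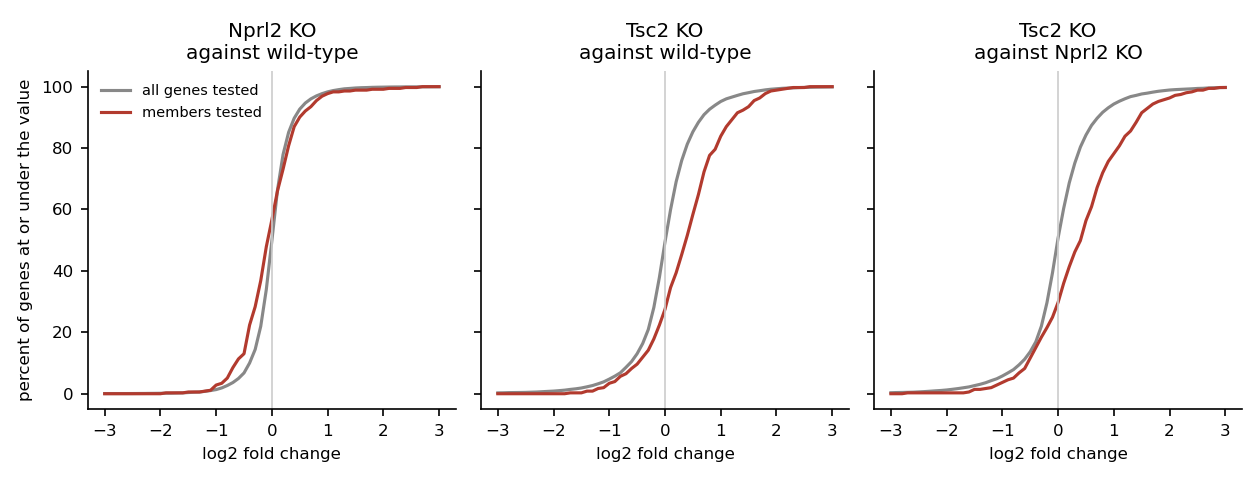
Cumulative percentage of genes (vertical axis) at or under each log2 fold change (horizontal axis) for the members tested and for all genes tested in the 3 GFP+ comparisons. The curve of the members lies to the right of that of all genes in both comparisons of *Tsc2* KO, with medians of 0.38 and 0.40, and slightly to the left in *Nprl2* KO, with a median of -0.07.

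Calls were also counted by the size of the recovery. In *Tsc2* KO, where 14.9% of all genes were higher and 14.2% lower, 17 of 38 tested members with a day 3 mean under 0.5 of day 0 were higher and 1 lower, 52 and 6 of the 126 between 0.5 and 1, 58 and 12 of the 149 between 1 and 2, and 8 and 12 of the 40 at 2 times day 0 or more. In *Nprl2* KO, where 2.78% of all genes were higher and 3.65% lower, the same classes had 1 higher and 7 lower, 5 and 7, 6 and 5, and 4 and 3. The differences between classes were not tested. Of the 22 members lower in *Nprl2* KO, 15 were called higher in *Tsc2* KO. Of the 16 higher in *Nprl2* KO, 11 were higher in *Tsc2* KO. Each was compared with the same wild-type libraries. The same overlap was not counted over all genes, so it is not known to be particular to the members.

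Most amino acid response members were higher in both KOs. In *Nprl2* KO 7 of the 9 rose and in *Tsc2* KO 8 of 9, with none lower, the exceptions being *Cebpb* in both (0.71 and -0.21, adjusted p = 0.0907 and 0.564) and *Ddit3* in *Nprl2* KO (0.61, adjusted p = 0.191). Of all 25 tested genes of the list 18 and 17 rose and none fell, where 2.78% and 14.9% of all genes were higher. *Nupr1* had 2.09 and 1.56 CPM (library-scaled counts, normalized by TMM) in wild-type, 11.3 and 11.9 in *Nprl2* KO, with 10.3 and 10.9 in *Tsc2* KO, and its log2 fold changes were 2.64 ± 0.22 (SE, adjusted p = 5.57e-05) and 2.51 ± 0.22 (adjusted p = 9.9e-06). Every KO library lay above both wild-type libraries, and the direct comparison of the KOs gave no call for *Nupr1* (-0.14 ± 0.17, adjusted p = 0.578). *Chac1* stood at 2.45 and 2.16 CPM in wild-type, 11.2 and 12.7 in *Nprl2* KO, with 4.81 and 7.82 in *Tsc2* KO. Its changes were 2.36 ± 0.27 (adjusted p = 0.000373) and 1.45 ± 0.29 (adjusted p = 0.00259).

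*Psat1*, at 150 and 154 CPM in wild-type, 335 and 388 in *Nprl2* KO, with 248 and 236 in *Tsc2* KO, rose by 1.25 and 0.67 on the log2 scale. Direct comparison of the KOs gave -0.58 ± 0.07 for *Psat1* and -0.56 ± 0.08 for *Aldh18a1* (edgeR adjusted p = 9.78e-05 and 0.00029), both lower in *Tsc2* KO. In that comparison 5 of the 9 members were lower in *Tsc2* KO and none higher, and of the 25 genes of the list 11 were lower and 1 higher. Over all genes 16.6% were lower and 17.5% higher. Of the 5 calls, those of *Chac1*, *Cebpb* and *Slc6a9* were lost when single libraries were left out. *Slc6a9* rose by 2.07 and 1.51, *Trib3* by 1.48 and 1.13, and *Pck2*, chosen after its values were seen, by 1.71 and 1.73 in *Nprl2* KO and *Tsc2* KO. *Ddit3* was called in *Tsc2* KO (1.02, adjusted p = 0.00888), a call lost without wild-type library 1 or *Tsc2* KO library 2 (adjusted p = 0.0786 and 0.0986). *Pycr1*, at 0.76 and 0.62, lost its calls without any of several libraries, with adjusted p up to 0.288.

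Of the 14 lysosomal members on the wider list, 8 were higher and none lower in *Tsc2* KO, while in *Nprl2* KO none was higher and 1, *Hexa*, was lower. Between the KOs, 8 were higher in *Tsc2* KO and none lower. On the first lysosome list, 15 of 27 genes were higher and none lower in *Tsc2* KO, and 1 was higher and 9 lower in *Nprl2* KO. *Hexa* had 38.4 and 47.1 CPM in wild-type, 25.3 and 25.7 in *Nprl2* KO, with 70.2 and 83.2 in *Tsc2* KO, and the 3 genotypes did not overlap. The difference between the KOs was 1.59 ± 0.12 (log2, edgeR adjusted p = 1.79e-06). *Gm2a*, the GM2 activator, changed by 1.11 ± 0.14 in *Tsc2* KO (adjusted p = 0.000138), from 13.3 and 11.7 CPM in wild-type to 25.5 and 28.6. Cathepsin C, *Ctsc*, rose by 1.04, *Fuca2* by 1.02 and *Slc36a1* by 0.70. In all, 34 of 56 tested genes of the wider list were higher in *Tsc2* KO than in *Nprl2* KO and 1 was lower. The summed feeder markers were lowest in *Tsc2* KO library 2, and their part in the lysosomal values was not tested.

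**Figure D4:**
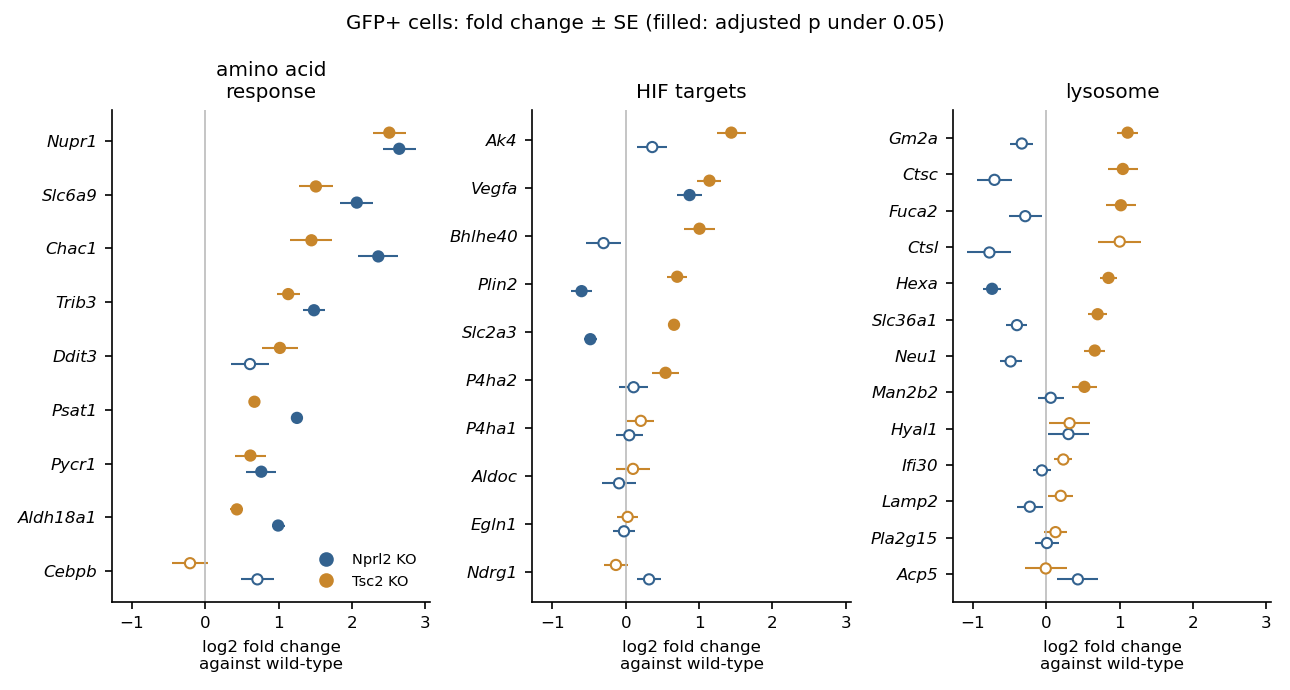
Log2 fold change against wild-type ± SE (horizontal axis) of members in the amino acid response, HIF target and lysosome groups, from 2 libraries of each genotype, for both KOs, with filled points for adjusted p under 0.05. Amino acid response members lie to the right of 0 in both KOs apart from *Cebpb* in *Tsc2* KO, and 12 of the 13 lysosomal members drawn lie to the right of 0 in *Tsc2* KO, the exception being *Acp5*, with 4 to the right in *Nprl2* KO.

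Of the 10 HIF target members tested, on the list written after the members were seen, 6 were higher and none lower in *Tsc2* KO, and 1 was higher and 2 lower in *Nprl2* KO. On the first list, of glycolysis and hypoxia, 3 of the 7 members were higher and none lower in *Tsc2* KO, 1 was higher and 1 lower in *Nprl2* KO, and 1 was higher and 1 lower between the KOs. Over all 33 tested genes of that list, 9 were higher and 6 lower in *Tsc2* KO, 4 and 1 in *Nprl2* KO, and 8 and 9 between the KOs. *Slc2a3* had 810 and 932 CPM in wild-type, 603 and 643 in *Nprl2* KO, with 1279 and 1469 in *Tsc2* KO, and the genotypes did not overlap (log2 fold changes -0.48 and 0.66, adjusted p = 0.00764 and 0.00023). The fall in *Nprl2* KO was lost without *Nprl2* KO library 1 (adjusted p = 0.0554). *Vegfa* was higher in both, from 6.72 and 6.71 CPM to 12.1 and 12.5 in *Nprl2* KO, with 15.8 and 13.9 in *Tsc2* KO, and *Ak4*, an adenylate kinase, rose by 1.44 in *Tsc2* KO. The rise of *Vegfa* in *Nprl2* KO was lost without wild-type library 1 or *Nprl2* KO library 2 (adjusted p = 0.0551 and 0.0648).

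A set of members went in opposite directions in the KOs. *Sfrp1*, a secreted Wnt inhibitor, had 37.8 and 33.6 CPM in wild-type, 18.6 and 14.9 in *Nprl2* KO, with 82.4 and 76.9 in *Tsc2* KO, so that the KOs differed by 2.26 ± 0.12 on the log2 scale (edgeR adjusted p = 1.21e-07). *Dcaf12l1*, of a family of ubiquitin ligase adaptors, stood at 16.7 and 19.1, 8.70 and 6.11, and 45.9 and 44.5 CPM in the same order, and *Car13*, a carbonic anhydrase, at 11.4 and 11.4, 5.30 and 5.49, and 28.8 and 26.6. In each of them the 3 genotypes were apart. *Grik3*, a glutamate receptor subunit, and *Ahnak*, a large scaffold protein, fell by 1.07 and by 1.06 in *Nprl2* KO and rose by 0.62 and 0.44 in *Tsc2* KO. *Plagl1*, an imprinted zinc finger gene, and *B2m* were lower in *Nprl2* KO (-0.80 and -0.66) and higher in *Tsc2* KO (1.27 and 1.27), but their calls in *Nprl2* KO were lost when single libraries were left out, with adjusted p up to 0.0609 and 0.178.

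Among the largest rises in *Tsc2* KO beside *Nupr1* were *Mras*, *Phyhd1*, *Sh3bp1*, *Ablim1*, *Ckmt1* and *Stmn3*. *Mras*, which fell 102-fold in the time course, had 15.3 and 6.11 CPM in wild-type, 8.89 and 5.73 in *Nprl2* KO, with 58.5 and 47.5 in *Tsc2* KO (2.26 ± 0.43, adjusted p = 0.0218). Its wild-type libraries differed by more than 2-fold. *Sh3bp1* rose by 2.09 ± 0.16 (adjusted p = 2.94e-06), from 10.4 and 9.59 CPM to 36.7 and 48.4. *Ablim1*, an actin-binding protein, rose by 1.94, *Ckmt1*, a mitochondrial creatine kinase, and *Stmn3*, a neuronal microtubule regulator, by 1.85 each, and *Aqp3* by 1.56. *C130074G19Rik* rose by 1.89, on chromosome 1, whose genes had a median of 0.37.

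Members lower in *Tsc2* KO included several that overshot by day 3. *Ap1m2* had 14.1 and 22.5 CPM in wild-type, 34.0 and 38.5 in *Nprl2* KO, with 4.16 and 6.30 in *Tsc2* KO, a change of -1.78 ± 0.27 in *Tsc2* KO (adjusted p = 0.00176) and of -2.78 between the KOs. Its rise in *Nprl2* KO, 1.01, was lost when any of 3 single libraries was left out, with adjusted p up to 0.174. *Mapk13*, a p38 kinase, fell by 1.22 and *Dpysl5*, a neuronal collapsin response mediator, by 0.78 in *Tsc2* KO. *H2afy2* was lower in both KOs, by 0.90 in *Nprl2* KO and 1.42 in *Tsc2* KO, at 31.1 and 34.2 CPM in wild-type, 15.9 and 18.8 in *Nprl2* KO, with 12.9 and 11.5 in *Tsc2* KO. *Junb* fell by 1.45 in *Tsc2* KO. *Lefty2*, on chromosome 1, was lower in *Tsc2* KO (-1.20, adjusted p = 0.0143), a call lost without *Tsc2* KO library 2 (adjusted p = 0.0824).

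Of the 4 LIF and Stat3 members, 1, *Junb*, was called lower in *Tsc2* KO (14.2% of all genes were), and none was called in *Nprl2* KO. *Socs3* had 6.27 and 5.03 CPM in wild-type, 3.31 and 4.95 in *Nprl2* KO, with 5.77 and 5.22 in *Tsc2* KO, and *Bcl3* had 2.45 and 2.04, 2.08 and 1.32, and 1.28 and 0.942. Neither was called in any of the 3 comparisons. *Stat5b*, at 7.81 and 6.47 CPM in wild-type and 7.21 and 6.16 in *Tsc2* KO, was not called in *Tsc2* KO either (adjusted p = 0.74). *Kit*, at 41.6 and 38.7 CPM in wild-type and 22.9 and 26.4 in *Nprl2* KO, was lower in *Nprl2* KO alone among the comparisons with wild-type (-0.70 ± 0.12, adjusted p = 0.00541), and *Tsc2* KO, at 38.7 and 45.6, overlapped with wild-type. The NF-kB members gave 1 call against wild-type, with *Tnfrsf1a* 0.79 higher in *Tsc2* KO, which was lost without wild-type library 1 or *Tsc2* KO library 2 (adjusted p up to 0.162).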

How the data were processed

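Reads were pseudoaligned by the authors with kallisto 0.42.1 (mm10, per the labels). The authors deposited estimated counts per transcript for each library and a table of TPM per gene, which is not normalized between libraries. Their own DESeq2 comparisons were also deposited (fold changes and p-values) and were not used.

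Members were taken from the TPM table. Estimated counts were summed per gene (33709 of 34079 transcripts assigned through RefSeq, 196 through GENCODE, 174 left out) and rounded. Counts were normalized by TMM, filtered with filterByExpr and fitted by edgeR 4.0.16 (R 4.3.3, quasi-likelihood, robust) over all 6 GFP+ libraries with genotype as factor, and p-values were adjusted by Benjamini-Hochberg over all genes tested. The 12 time-course libraries were fitted apart, for fold changes only. The procedure was tested on simulated data. Alternatives were DESeq2 1.42.0, limma 3.58.1 on TPM, other filters and normalizations, a replicate block, and leaving out each library.

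Members, lists and named genes were chosen with earlier results of these data known. Named genes were members on the lists, the 15 deepest falls, the 10 most abundant, the extremes of day 3 over day 0 and of each GFP+ comparison, and the genes nearest each limit. The lists of HIF targets, lysosomal hydrolases and transporters, NF-kB, LIF and Stat3, neuronal cytoskeleton, chromatin, and serine, proline and alanine metabolism were written after the members were seen, and genes named from them were chosen then. The shares of members on these lists are partly set by that choice. Samples with the same replicate number deviated together (r = 0.233, 0.211 and 0.136 over genes for the 3 pairs of genotypes), but there are only 2 numbers and the labels do not say what they share. 1 lysosomal member is counted but not reported here by itself. Precision is limited by 2 libraries per genotype and by counts, and p-values cover only the spread between these libraries.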

Additional observations from a re-analysis of the deposited data

How the results depend on the processing

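The size of the group followed its limits: 702 genes with a day 0 mean of 1 TPM or more, 202 with 10 or more, 853 with a 1.5-fold fall and rise and 122 with a 3-fold one. Leaving out single time-course libraries gave 337 to 398 genes. The same rule on TMM-normalized CPM took 375 genes, of which 268 were among the 358 members. On single transcripts it took 369 genes, with 313 shared. In Nprl2 KO against wild-type, 73 members and 1666 genes were called without the filter on low counts, in place of 38 and 882. A paired fit, using a replicate block, gave 79 members and 2069 genes, and this block moved no other count by more than 1.5 times. Without single libraries they were 23 to 42 members and 340 to 783 genes, lowest without Nprl2 KO replicate 2. In Tsc2 KO against wild-type, leaving out single libraries gave 110 to 162 members (main 166) and 2225 to 3975 genes (main 3997), lowest without Tsc2 KO replicate 2. Between the KOs it gave 139 to 198 members (main 189) and 2973 to 4793 genes (main 4691). The cause of these shifts was not tested.

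Of the named calls, 14 of 32 in Nprl2 KO, 24 of 72 in Tsc2 KO and 8 of 36 between the KOs were lost without at least 1 library, and 3, 11 and 4 under DESeq2. No direction reversed. As alternatives chosen after seeing the data, leaving out chromosomes 1 and 12 gave 151 of 331 members and 3443 of 12499 genes called in Tsc2 KO against wild-type, and keeping only members that also met the rule in TMM-normalized CPM gave 31, 133 and 149 in the 3 comparisons, of 267 tested, where 6.43%, 29.1% and 34.2% of all genes were called. Falls to few counts on day 1 limit the deepest ratios.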
